A study of Mus musculus with 4 samples.

Results

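The genes of cholesterol and lipid synthesis were examined in mouse neural stem cells by Nanopore long-read RNA sequencing. The group was defined by name as 33 genes: 7 enzymes of the mevalonate and prenyl steps, 10 enzymes from squalene to cholesterol, 5 genes of the SREBP system, 6 genes of fatty acid and glycerolipid synthesis and 5 genes of sterol transport and uptake. Their symbols were matched through Ensembl gene identifiers to the deposited isoforms, and 31 of the 33 had an entry, out of 14949 genes in all. Abca1, which exports cholesterol, and Lrp1, a lipoprotein receptor, had no entry among the isoforms analysed here. The 31 genes held 174 of the 46637 isoforms that named a gene, and 62 of the 174 were annotated Ensembl transcripts that carried 81.1% of the group's reads.

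Cells make cholesterol from acetyl-CoA through mevalonate, farnesyl diphosphate, squalene and lanosterol. The supply is set by the SREBP transcription factors: when membrane sterol is low, SCAP carries SREBP from the endoplasmic reticulum to the Golgi, where proteases release its active domain, and when sterol is high, INSIG proteins hold SCAP and SREBP back. SREBF2 mainly drives the sterol genes and SREBF1 the fatty acid genes, and INSIG1 is itself a target, which closes a feedback loop. Brain cells synthesise nearly all of their own cholesterol, because lipoproteins of the blood do not cross into the brain.

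The study asked whether loss of Tut1, which encodes the enzyme that adds uridines to the end of U6 snRNA, alters splicing. Neural stem cells came from embryonic neocortex of floxed mice and grew as neurospheres, and each group was 1 library. The control, Tut1f/f, carried floxed Tut1 alleles and received an empty lipid nanoparticle (LNP). The other libraries received LNP with Cre mRNA for 3 days: Tut1f/f;Cre, Trp53f/f;Cre (p53f/f in the sample labels) and Tut1f/f;Trp53f/f;Cre, which carried both floxed genes. Where a sentence below gives 4 values in order, this is the order of the libraries. No control library had Trp53f/f cells without Cre mRNA, and none of these libraries had Cre mRNA in cells without floxed genes. With 1 library a group, none of the differences can be checked against replicates, and intervals cover counting error only, since amplified cDNA was counted without molecular identifiers.

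Reads that named a gene ranged from 2863392 to 4244467 a library. Tut1, the targeted gene, had 37, 11, 14 and 27 reads in order, and Trp53 had 175, 67, 10 and 19. The Tut1 reads of the Trp53f/f;Cre-labelled and Tut1f/f;Trp53f/f;Cre-labelled libraries thus went against their labels, although the table does not show which reads lack the deleted exon. Xist, the RNA of the inactive X chromosome, had 0, 44, 49 and 0 reads, and the Y-linked gene Kdm5d had 102, 0, 0 and 96. Tut1f/f and the Tut1f/f;Trp53f/f;Cre-labelled library therefore stood apart from the other libraries in the sex of the cells, and in each comparison between one of these and one of the others the sex of the cells and the genotype cannot be told apart. The Tut1f/f;Trp53f/f;Cre-labelled library and Tut1f/f were alike in these reads, as were Tut1f/f;Cre and the Trp53f/f;Cre-labelled library. A ribosomal RNA gene, CT010467.1, took 18.7%, 9.75%, 8.91% and 5.46% of gene reads. All 7 neural stem cell markers examined, Nes, Sox2, Pax6, Vim, Fabp7, Hes1 and Sox9, were read in every library, with a summed level between 11238 and 13009 CPM, which here means reads per 1e6 gene reads after TMM scaling. Fabp7 made up most of that sum (9381 to 11381 CPM), and the others varied with the libraries. By the 2-fold rule described below, Nes, Pax6, Hes1 and Sox9 were higher than Tut1f/f in Tut1f/f;Cre, Nes, Hes1 and Sox9 were higher and Vim lower in the Trp53f/f;Cre-labelled library, and Hes1 was higher and Vim lower in the Tut1f/f;Trp53f/f;Cre-labelled library.

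Promoter sequences were taken from RefSeq (GRCm38.p6) for the 26 genes of the group with a window of 300 bases around a start site, 34 windows in all. The sterol regulatory element, to which SREBP binds, was searched as TCACNCCAC and as its core CACNCCAC, the CCAAT box, which binds NF-Y, as CCAAT, and the E-box as CACGTG, each on both strands. TCACNCCAC contains CACNCCAC, so the first set of matches lies within the second. The stretches below belong to Hmgcs1, an early enzyme of the pathway whose isoforms also differed, and to 4 of the 6 genes that were lower than in Tut1f/f in every library given Cre mRNA. They read 5′ to 3′ on the strand of the gene and end at or before the start site, and capitals mark the letters searched on either strand.
Hmgcs1, chr13:119690151-119690350, plus strand: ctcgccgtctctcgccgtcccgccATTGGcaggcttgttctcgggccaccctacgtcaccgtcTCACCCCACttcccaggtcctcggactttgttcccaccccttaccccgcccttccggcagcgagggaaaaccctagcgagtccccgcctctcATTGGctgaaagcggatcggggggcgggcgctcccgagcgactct
Mvd, chr8:122443423-122443572, minus strand: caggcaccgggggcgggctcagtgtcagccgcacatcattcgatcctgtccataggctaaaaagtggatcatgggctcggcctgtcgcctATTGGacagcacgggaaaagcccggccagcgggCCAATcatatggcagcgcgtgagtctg
Insig1, chr5:28071262-28071362, plus strand: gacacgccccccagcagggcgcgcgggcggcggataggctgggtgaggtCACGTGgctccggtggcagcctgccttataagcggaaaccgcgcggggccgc
Fasn, chr11:120824548-120824697, minus strand: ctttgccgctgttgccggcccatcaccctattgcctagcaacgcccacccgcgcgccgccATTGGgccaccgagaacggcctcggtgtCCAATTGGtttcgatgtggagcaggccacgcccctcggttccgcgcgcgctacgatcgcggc
Acly, chr11:100528001-100528150, minus strand: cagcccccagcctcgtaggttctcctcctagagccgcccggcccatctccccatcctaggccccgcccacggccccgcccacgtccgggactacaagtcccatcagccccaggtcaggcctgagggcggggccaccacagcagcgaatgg

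The printed stretch of Acly held none of the letters searched, while its whole 300-base window held a CCAAT box outside that stretch. The printed stretch of Insig1 held an E-box, while its whole window also held the core CACNCCAC and a CCAAT box outside that stretch. Hmgcs1 was the gene of the group whose window held the longer element, TCACNCCAC, with its first base 137 bases upstream of the start and a CCAAT box on either side. That element was found in 2.94% of the group's windows and in 1.24% of all 32851 windows. The core CACNCCAC was found in 8.82% of the group's windows (Acat2, Hmgcs1 and Insig1) and in 6.24% of all windows. The CCAAT box was found in 61.8% of the group's windows against 37.4% of all windows, and the E-box in 20.6% against 7.15%. All windows belong to 27025 genes, which include genes without reads here and were not limited to the genes tested below. The group's windows include that of Abca1, which had no entry. These matches describe letters in the windows and were not tested.

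Against Tut1f/f, 15 of the 22 enzymes of cholesterol and fatty acid synthesis that passed the filter were lower in Tut1f/f;Cre, 11 in the Trp53f/f;Cre-labelled library and 5 in the Tut1f/f;Trp53f/f;Cre-labelled library. Of all genes tested, 13.3%, 15.3% and 9.76% were lower by the same rule, which is given below. None of the genes of sterol transport was past it. The summed level of the group was 3959 CPM in Tut1f/f, 1834 CPM in Tut1f/f;Cre, 2392 CPM in the Trp53f/f;Cre-labelled library and 3299 CPM in the Tut1f/f;Trp53f/f;Cre-labelled library. A gene was counted as lower or higher when its ratio of CPM was at least 2-fold and the exact 95% interval of that ratio excluded no change (the ratio rule). Of the 31 genes, 29 passed the filter on low reads, which keeps a gene that is read well in a single library. Srebf1 and Acaca did not pass.

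In Tut1f/f;Cre, 16 of the 29 genes were lower than in Tut1f/f and 0 were higher, where 13.3% of all 9882 genes tested were lower and 12.7% were higher. The median log2 ratio was -1.11 over the group and -0.01 over all genes. In the Trp53f/f;Cre-labelled library, 13 of the 29 were lower and 0 higher, against 15.3% and 12.5% of all genes, with a median of -0.89 beside -0.02, which became -0.48 when only plain Ensembl transcripts were summed. In the Tut1f/f;Trp53f/f;Cre-labelled library, 6 of the 29 were lower and 0 higher, against 9.76% and 10.3% of all genes. Its median was -0.25 beside -0.01, and became 0.05 when only plain Ensembl transcripts were summed. Without the filter, the counts over all 31 genes were 17, 14 and 7 lower, since Srebf1 was added each time, where 10.4%, 12.0% and 8.02% of all 14663 genes were lower. Acly, Fasn, Insig1, Mvd, Mvk and Scd2 were lower in all 3 comparisons, 6 of the 29 genes where 5.76% of all genes were. These comparisons share the Tut1f/f library, so their counts are not independent of each other.

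**Figure D1:**
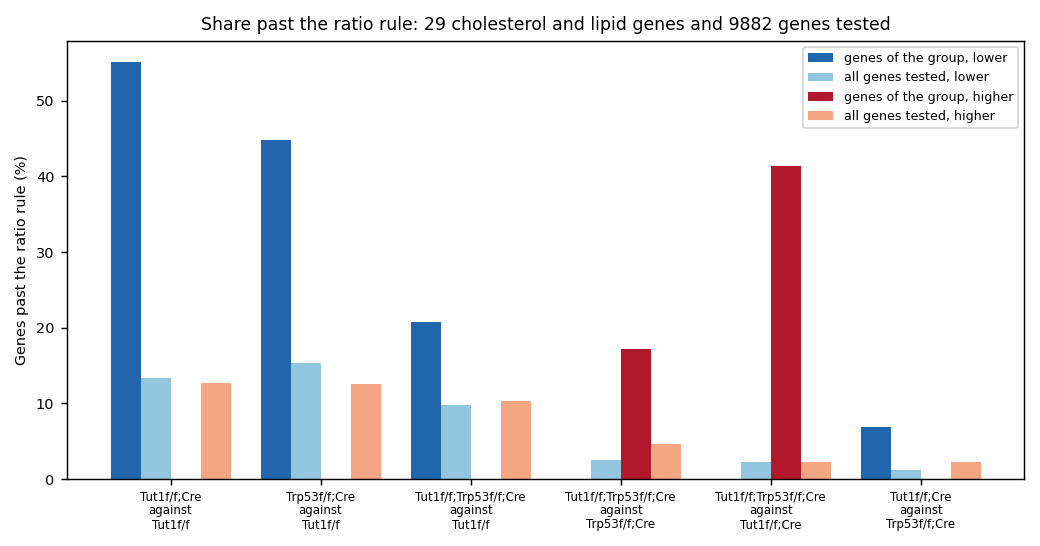
Share of genes past the ratio rule (vertical axis, percent) in each of the 6 comparisons of libraries, for the 29 cholesterol and lipid genes that passed the filter (dark bars) and for all 9882 genes tested (light bars), lower in blue and higher in red. Dark blue bars stand at 55.2%, 44.8% and 20.7% in the comparisons with Tut1f/f, and dark red bars at 17.2% and 41.4% where the Tut1f/f;Trp53f/f;Cre-labelled library is set against the other libraries given Cre mRNA.

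Of the 7 mevalonate and prenyl enzymes, Tut1f/f;Cre had 5 below Tut1f/f by the rule, the Trp53f/f;Cre-labelled library 5 and the Tut1f/f;Trp53f/f;Cre-labelled library 2, where 13.3%, 15.3% and 9.76% of all genes were lower. Their summed level was 1539, 651, 857 and 1411 CPM in order. Hmgcs1 (ENSMUSG00000093930, GRCm38 chr13:119690379-119708260, plus strand), which condenses acetyl-CoA into HMG-CoA, had 2199, 524, 666 and 1149 reads. Its levels were 553 CPM (95% interval 530 to 577), 173 CPM (159 to 188), 191 CPM (177 to 206) and 389 CPM (367 to 413). The intervals of Tut1f/f;Cre and the Trp53f/f;Cre-labelled library overlapped, and those of the other libraries lay above them. The log2 ratios against Tut1f/f came to -1.68 (-1.82 to -1.54), -1.53 (-1.66 to -1.41) and -0.51 (-0.61 to -0.40), so that the last was not counted.

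Mvd (ENSMUSG00000006517, chr8:122433601-122443422, minus strand), which decarboxylates mevalonate diphosphate, had 290, 18, 44 and 66 reads, or 72.9, 5.94, 12.6 and 22.4 CPM. It was lower than Tut1f/f by 12.3-fold, 5.77-fold and 3.26-fold, and its log2 ratios were -3.62 (-4.39 to -2.93), -2.53 (-3.02 to -2.07) and -1.70 (-2.11 to -1.31). No other gene of the group that passed the filter had a ratio to Tut1f/f as low as that of Mvd in Tut1f/f;Cre. Mvk, the kinase of mevalonate, had 50.3, 16.8, 16.4 and 21.4 CPM, with log2 ratios of -1.58, -1.62 and -1.24, and the last became -0.72 over plain Ensembl transcripts.

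Acat2, which makes acetoacetyl-CoA for the pathway, had 78.2, 30.0, 34.7 and 81.3 CPM. Idi1, which isomerises isopentenyl diphosphate, had 127, 41.9, 49.6 and 87.8 CPM. Both were counted as lower in Tut1f/f;Cre (log2 ratios -1.38 and -1.60) and in the Trp53f/f;Cre-labelled library (-1.17 and -1.36), and neither in the Tut1f/f;Trp53f/f;Cre-labelled library (0.06 and -0.54). Fdps, which builds farnesyl diphosphate, had 504, 280, 388 and 621 CPM, and Pmvk, the kinase that follows Mvk, had 153, 103, 164 and 188 CPM. Neither was counted against Tut1f/f, so the enzymes of these steps did not share a single ratio. Reads of Fdps can be shared with the overlapping genes Gm43738 and Gm22935, which had 6 and 4 reads.

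**Figure D2:**
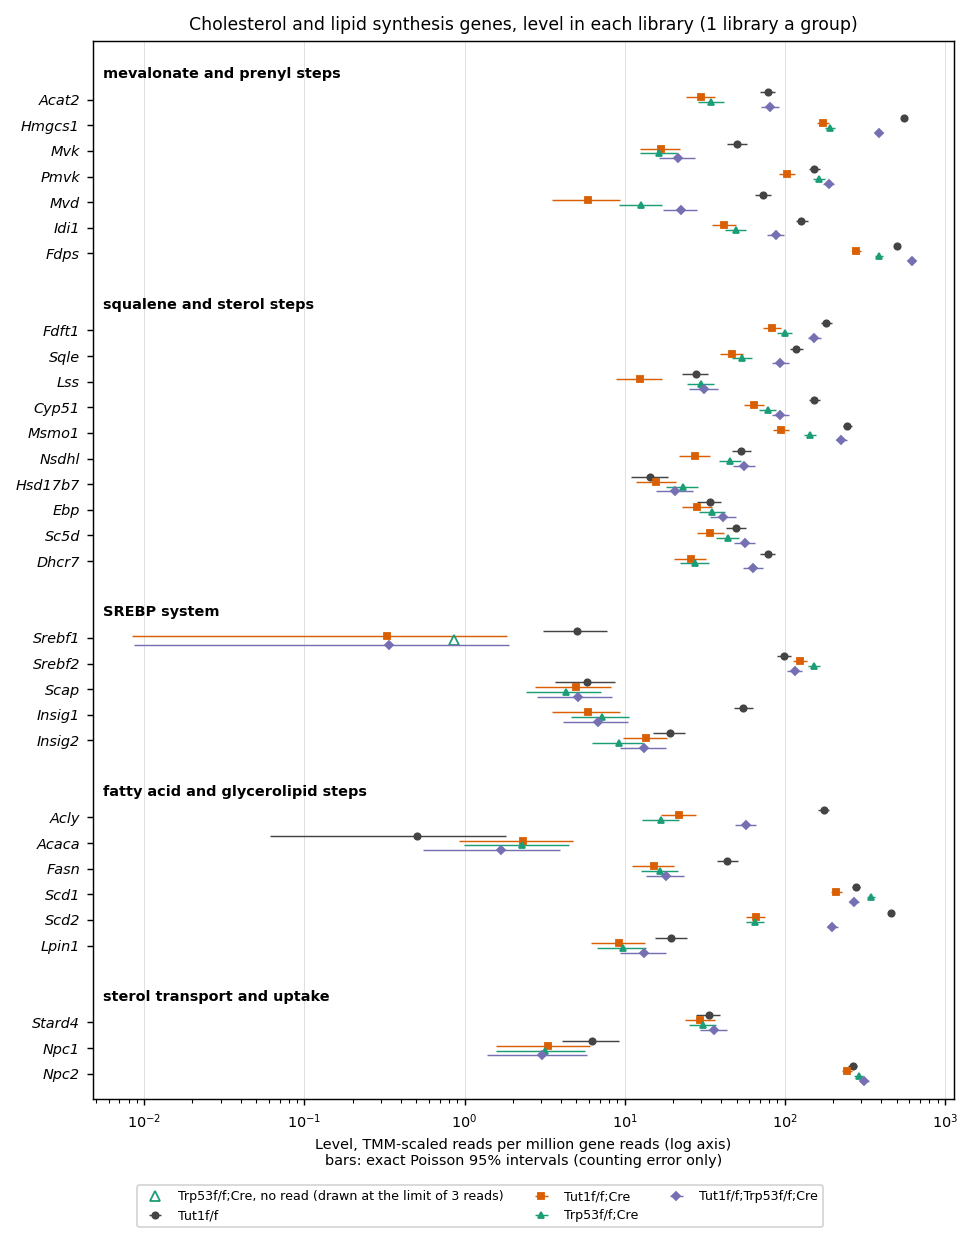
Level of the 31 genes with an entry (TMM-scaled CPM, log axis) in each library, grouped by role, with exact Poisson 95% intervals as bars. An open triangle stands where no read was seen and is drawn at the limit that 3 reads would give. Hmgcs1 sits at 553 CPM in Tut1f/f and at 173 CPM in Tut1f/f;Cre, while the symbols of Npc2 lie between 244 and 313 CPM.

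From squalene to cholesterol, 6 of 10 enzymes were lower in Tut1f/f;Cre, 2 in the Trp53f/f;Cre-labelled library and 0 in the Tut1f/f;Trp53f/f;Cre-labelled library, where 13.3%, 15.3% and 9.76% of all genes were lower. The summed level was 956, 433, 581 and 835 CPM. Sqle, the epoxidase of squalene, had 118, 46.6, 54.0 and 93.9 CPM, and Dhcr7, which reduces 7-dehydrocholesterol at the end of the pathway, had 78.2, 25.8, 27.6 and 63.4 CPM. These were the enzymes counted as lower in both Tut1f/f;Cre (log2 ratios -1.34 and -1.60) and the Trp53f/f;Cre-labelled library (-1.13 and -1.51). Tut1f/f and the Tut1f/f;Trp53f/f;Cre-labelled library were the highest for both.

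Fdft1 (squalene synthase), Lss (lanosterol synthase), Cyp51 (lanosterol demethylase) and Msmo1 (sterol C4-methyl oxidase) were counted as lower in Tut1f/f;Cre alone. Fdft1 had 182, 83.5, 100 and 153 CPM, and Cyp51 had 153, 64.1, 78.1 and 93.9 CPM. Msmo1 had 246, 94.4, 144 and 225 CPM. Lss differed from them in its order, at 27.7, 12.5, 29.8 and 31.2 CPM, with Tut1f/f;Cre alone below the others. Their log2 ratios in Tut1f/f;Cre were -1.12, -1.14, -1.26 and -1.38 for Fdft1, Lss, Cyp51 and Msmo1. The call of Fdft1 was lost when libraries were scaled by their totals, where its ratio came to just under 2-fold. Fdft1 overlaps Ctsb (889 reads) and Cyp51 overlaps Akap9 (571 reads) on the opposite strand, and whether the counting used strand is not given in the sources used here.

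Nsdhl, Hsd17b7, Ebp and Sc5d, which act on the sterol ring and its methyl groups, were not counted against Tut1f/f in any library. Nsdhl, which lies on the X chromosome, had 53.6, 27.4, 45.6 and 55.6 CPM, and Ebp, also on the X chromosome, had 33.9, 28.4, 35.3 and 41.3 CPM. Hsd17b7 had 14.3, 15.8, 23.0 and 20.7 CPM and was the enzyme of these steps with a log2 ratio above 0 in Tut1f/f;Cre (0.15, -0.44 to 0.72). Sc5d had 49.8, 34.3, 43.9 and 56.3 CPM.

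In the SREBP system, Insig1 was far lower than in Tut1f/f in every library given Cre mRNA, and Srebf2 was not past the rule in any. Insig1 (ENSMUSG00000045294, chr5:28071363-28078662, plus strand), the sterol-dependent anchor of SCAP, had 219, 18, 25 and 20 reads. Its levels were 55.1 CPM (48.0 to 62.9), 5.94 CPM (3.52 to 9.39), 7.17 CPM (4.64 to 10.6) and 6.78 CPM (4.14 to 10.5), so that all libraries given Cre mRNA overlapped and lay below Tut1f/f. It was lower by 9.27-fold, 7.67-fold and 8.12-fold, with log2 ratios of -3.21 (-3.99 to -2.52), -2.94 (-3.60 to -2.34) and -3.02 (-3.76 to -2.36). Between the Tut1f/f;Trp53f/f;Cre-labelled library and Tut1f/f;Cre its log2 ratio was 0.19 (-0.80 to 1.19), an interval that included no change.

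Srebf2, the main sterol regulator, had 99.1, 124, 153 and 115 CPM. Its log2 ratios against Tut1f/f came to 0.33 (0.12 to 0.54), 0.62 (0.43 to 0.82) and 0.21 (0.00 to 0.43), none of which reached 2-fold. It overlaps Gm49502, which had 37 reads on the same strand. Srebf1, the lipogenic regulator, was near the limit of detection with 20, 1, 0 and 1 reads, and overlaps Rai1 (10 reads). The absence of a read in the Trp53f/f;Cre-labelled library allows up to 0.861 CPM (3 reads), beside 5.03 CPM (3.07 to 7.77) in Tut1f/f, and the exact interval of the log2 ratio ended at -2.11. With a single read in each of the other libraries, the log2 ratios of -3.93 (-9.30 to -1.28) and -3.89 (-9.26 to -1.25) had wide intervals.

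Scap, the escort of SREBP, had 5.78, 4.95, 4.30 and 5.08 CPM from 23, 15, 15 and 15 reads, and its log2 ratios to Tut1f/f had intervals reaching from -1.47 to 0.81, which hold a 2-fold fall and no 2-fold rise. Insig2, the other anchor of SCAP, had 19.1, 13.5, 9.18 and 13.2 CPM. It was counted as lower only in the Trp53f/f;Cre-labelled library, with a log2 ratio of -1.06 (-1.70 to -0.44) that became -0.94 when libraries were scaled by their totals. The ratio of Insig2 to Tut1f/f was thus nearer to no change than that of Insig1 in all 3 libraries.

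Among the genes of fatty acid and glycerolipid synthesis, Acly, Fasn and Scd2 were lower than in Tut1f/f in each library given Cre mRNA. Acly (ENSMUSG00000020917, chr11:100476353-100528000, minus strand), which cleaves citrate into acetyl-CoA, had 697, 66, 59 and 168 reads. Its levels were 175 CPM (162 to 189), 21.8 CPM (16.9 to 27.7), 16.9 CPM (12.9 to 21.8) and 56.9 CPM (48.7 to 66.2). It was lower by 8.04-fold, 10.4-fold and 3.08-fold, and the Tut1f/f;Trp53f/f;Cre-labelled library lay between Tut1f/f and the others.

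Scd2, the stearoyl-CoA desaturase best known from the brain, followed the same order. It had 458 CPM (438 to 480), 65.7 CPM (56.9 to 75.5), 65.1 CPM (56.9 to 74.2) and 198 CPM (183 to 215), with log2 ratios of -2.80, -2.81 and -1.21. Its neighbour Scd1 (chr19:44394455-44407879), a desaturase of the same reaction, had 278, 210, 346 and 272 CPM and was not counted in any comparison. The pair are close copies, and how reads that match several places were handled is not given in the sources used here.

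Fasn, the synthase of palmitate, had 43.7, 15.2, 16.6 and 18.0 CPM, with overlapping intervals of the ratios among the libraries given Cre mRNA. Its log2 ratios against Tut1f/f came to -1.53 (-2.03 to -1.05), -1.39 (-1.85 to -0.96) and -1.28 (-1.76 to -0.83). Lpin1, a phosphatidate phosphatase, had 19.6, 9.24, 9.76 and 13.2 CPM and was counted as lower in Tut1f/f;Cre (-1.09, -1.76 to -0.45) and the Trp53f/f;Cre-labelled library (-1.01, -1.63 to -0.41). Both calls of Lpin1 were lost when libraries were scaled by their totals (-0.96 and -0.89), and over plain Ensembl transcripts the ratios were -0.69 and 0.12. Acaca, which makes malonyl-CoA, had 2, 7, 8 and 5 reads and no ratio was counted.

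The 3 genes of sterol transport with an entry were not counted in any comparison. Npc2, which binds cholesterol in lysosomes, had 265, 244, 290 and 313 CPM. Npc1, its membrane partner, had 25, 10, 11 and 9 reads, with log2 ratios of -0.93 (-2.15 to 0.18), -0.99 (-2.16 to 0.08) and -1.04 (-2.33 to 0.10) that were not distinguishable from no change at this depth, and it overlaps Rmc1 (63 reads). Stard4, a cytosolic sterol carrier, had 33.4, 29.7, 30.7 and 35.9 CPM. The ratios of Npc2 and Stard4 to Tut1f/f stayed between -0.17 and 0.24 on the log2 scale.

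**Figure D3:**
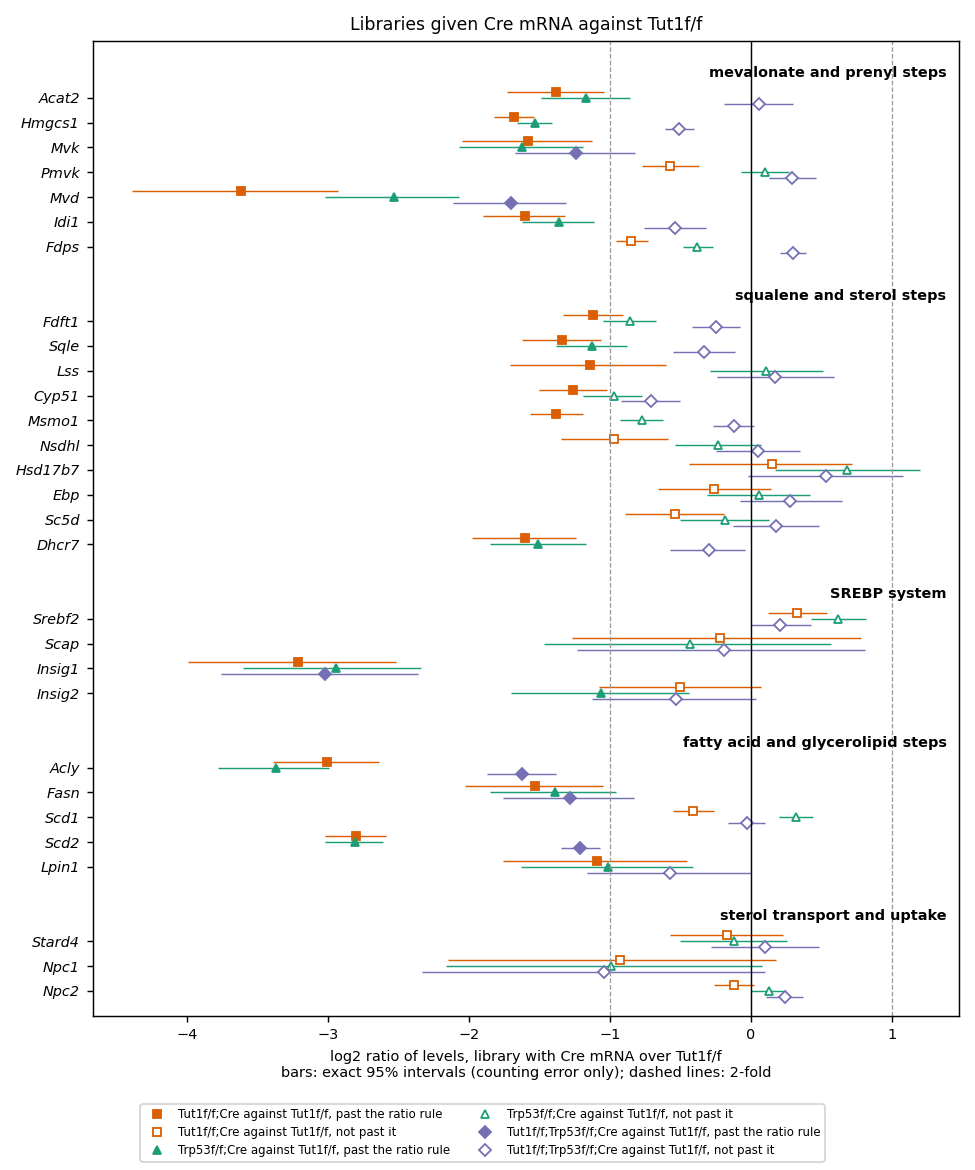
log2 ratio of the level in each library given Cre mRNA to that in Tut1f/f (horizontal axis) for the 29 genes that passed the filter, with exact 95% intervals as bars, filled symbols past the ratio rule and dashed lines at 2-fold. Insig1 lies near -3 in all libraries, whereas for Hmgcs1 and Dhcr7 the diamonds of the Tut1f/f;Trp53f/f;Cre-labelled library stand to the right of the other symbols, at -0.51 and -0.30.

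Among the libraries given Cre mRNA, most sterol enzymes were highest in the Tut1f/f;Trp53f/f;Cre-labelled library and mostly lowest in Tut1f/f;Cre. Of the 29 genes, 23 (79.3%) were highest in the Tut1f/f;Trp53f/f;Cre-labelled library and 22 (75.9%) were lowest in Tut1f/f;Cre, where 39.9% and 28.3% of all genes tested had these ranks. This order was not tested. It runs with the sex of the cells, since the Tut1f/f;Trp53f/f;Cre-labelled library was the Y-positive library of these, and with its Tut1 reads, which were near those of Tut1f/f.

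Against Tut1f/f;Cre, 12 of the 29 genes were higher in the Tut1f/f;Trp53f/f;Cre-labelled library and 0 were lower, where 2.23% of all genes were higher and 2.27% lower. The median log2 ratio was 0.70 over the group and 0.03 over all genes. The 12 were 5 enzymes of the mevalonate and prenyl steps (Acat2, Hmgcs1, Mvd, Idi1 and Fdps), 5 of the sterol steps (Sqle, Lss, Msmo1, Nsdhl and Dhcr7) and the lipogenic genes Acly and Scd2. Mvd had the largest log2 ratio of them, at 1.91 (1.14 to 2.75), followed by Scd2 at 1.59 (1.36 to 1.83) and Acat2 at 1.44 (1.08 to 1.80). Nsdhl (1.02, 0.63 to 1.42) and Sqle (1.01, 0.71 to 1.31) stood just past 2-fold, and each fell just under it in an alternative, to 0.86 over plain Ensembl transcripts and to 0.99 with DESeq2 size factors.

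Against the Trp53f/f;Cre-labelled library, 5 of the 29 genes were higher in the Tut1f/f;Trp53f/f;Cre-labelled library and 0 were lower, where 4.68% of all genes were higher and 2.56% lower. They were Acat2 (1.23, 0.91 to 1.56), Hmgcs1 (1.03, 0.89 to 1.17), Dhcr7 (1.20, 0.84 to 1.57), Acly (1.75, 1.31 to 2.20) and Scd2 (1.61, 1.38 to 1.83). All 5 were also past the rule against Tut1f/f;Cre, with which this comparison shares a library. The median was 0.35 over the group and 0.03 over all genes. Hmgcs1 stood at 0.99 with DESeq2 size factors and left the count, and the count was 3 of 26 over plain Ensembl transcripts, where 4.31% of all genes were higher.

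Tut1f/f;Cre and the Trp53f/f;Cre-labelled library differed less. Mvd (-1.09, -1.97 to -0.27) and Lss (-1.25, -1.83 to -0.70) were lower in Tut1f/f;Cre, 2 of 29 genes where 1.16% of all genes were lower, and 0 were higher where 2.19% of all genes were. Hmgcs1 (-0.14, -0.31 to 0.02), Scd2 (0.01, -0.27 to 0.29) and Dhcr7 (-0.10, -0.55 to 0.35) had intervals that included no change. Over the group the median was -0.25 beside 0.02 over all genes, and Mvd moved to -0.91 over plain Ensembl transcripts.

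**Figure D4:**
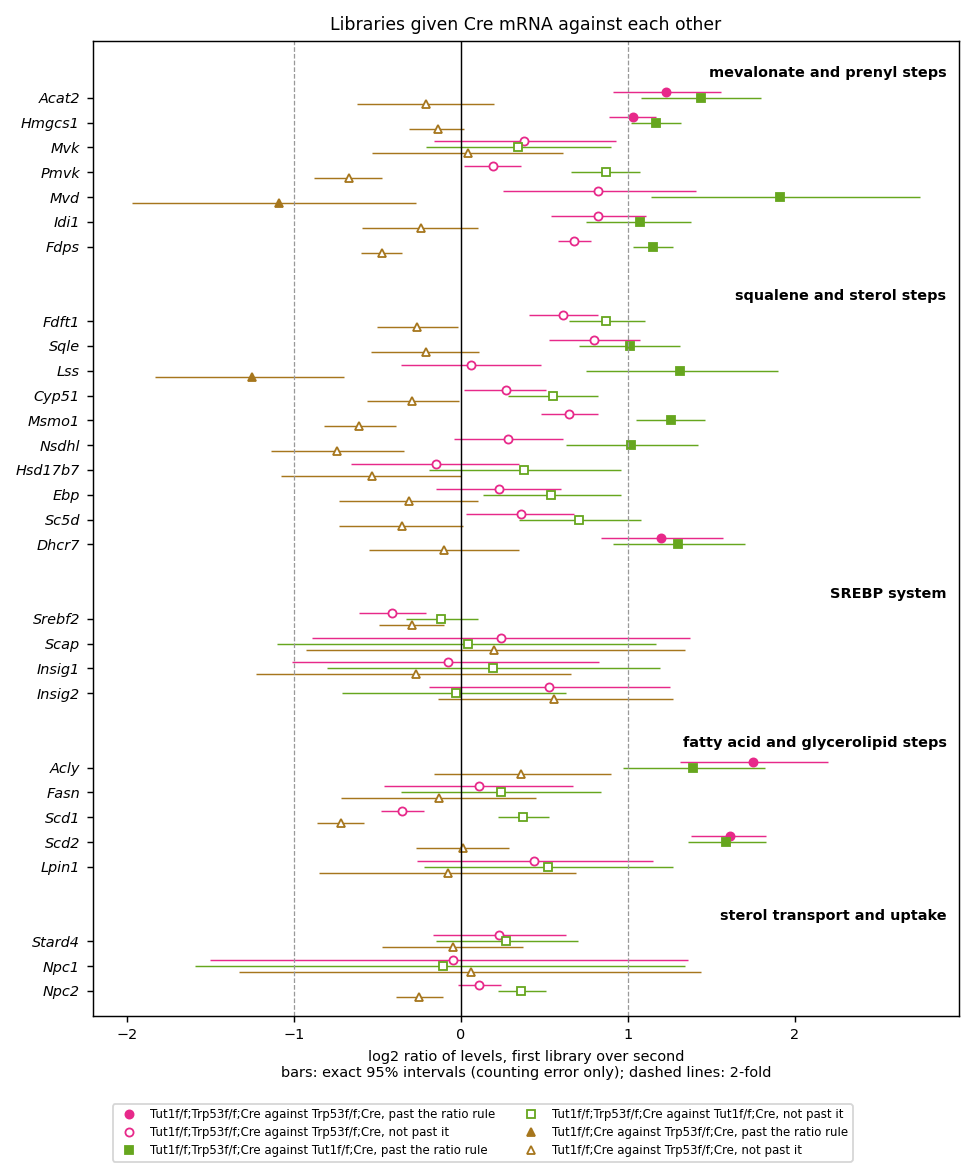
log2 ratio of levels between the libraries given Cre mRNA (horizontal axis) for the 29 genes that passed the filter, with exact 95% intervals as bars, filled symbols past the ratio rule and dashed lines at 2-fold. Circles and squares, which set the Tut1f/f;Trp53f/f;Cre-labelled library against the others, lie right of 0 for every mevalonate and prenyl enzyme, and the triangles, Tut1f/f;Cre against the Trp53f/f;Cre-labelled library, lie left of 0 for all 10 sterol enzymes.

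No gene of the group was called when the libraries were fitted together. edgeR fitted the 4 libraries with a term for Tut1 and a term for Trp53, using its quasi-likelihood test with 1 residual degree of freedom, and called 0 of the 29 genes for Tut1 status and 0 for Trp53 status, where 0% and 0.0101% of all genes were called. DESeq2 also called 0 of the 29 for each. At an unadjusted p under 0.05, edgeR gave 1 gene of the group for each status, Insig1 both times, beside 187 and 153 of all 9882 genes. DESeq2 gave 1 and 0 genes of the group, beside 70 and 62 of all 9882 genes. For Tut1 status the log2 fold change of Insig1 was -1.71 (SE 0.678, edgeR adjusted p = 1). Hmgcs1 had log2 fold changes of -0.32 (SE 0.473) for Tut1 status and -0.18 (SE 0.472) for Trp53 status. A gene that is high in Tut1f/f and in the Tut1f/f;Trp53f/f;Cre-labelled library enters this model as residual spread.

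The isoforms of several enzymes also took different shares of their gene's reads. Shares were compared between pairs of libraries with Fisher's two-sided exact test, and a call needed a Benjamini-Hochberg FDR below 0.05 over all isoforms and shares that lay 10 or more percentage points apart. The group had 6 of 96 isoforms called in Tut1f/f;Cre against Tut1f/f (8.66% of all isoforms were called) and 16 of 105 in the Trp53f/f;Cre-labelled library (9.12%). In the Tut1f/f;Trp53f/f;Cre-labelled library, 5 of 106 were called (6.49%). The shares called in the group, 6.25%, 15.2% and 4.72%, were thus below, above and below those of all isoforms. The test compares libraries, not conditions.

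For Hmgcs1, the most-read transcript of Tut1f/f held a smaller share, and a form with an added exon a larger one, in the libraries given Cre mRNA. Hmgcs1-201 (ENSMUST00000179869) held 59.9% of the gene's reads in the control, 41.2% in Tut1f/f;Cre, 220 of 666 reads in the Trp53f/f;Cre-labelled library and 50.9% in the Tut1f/f;Trp53f/f;Cre-labelled library, and Hmgcs1-202 (ENSMUST00000224188) held 22.6%, 37.4%, 48.8% and 28.3%. Hmgcs1-202 carries an extra exon of 59 bases (exon 2, chr13:119694989-119695047) ahead of the coding sequence, and both transcripts have 1560 coding bases. Both were called in Tut1f/f;Cre (-18.7 and 14.8 percentage points, exact test FDR 2.3e-12 and 1.6e-09) and in the Trp53f/f;Cre-labelled library (-26.9 and 26.2 points, exact test FDR 1.1e-31 and 1.0e-33) against Tut1f/f.

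The isoforms differed unequally in level. Hmgcs1-201 had 331, 71.3, 63.1 and 198 CPM, and Hmgcs1-202 had 125, 64.7, 93.3 and 110 CPM. The log2 ratio to Tut1f/f in the Trp53f/f;Cre-labelled library was -2.39 (-2.60 to -2.19) for Hmgcs1-201 and -0.42 (-0.63 to -0.22) for Hmgcs1-202. Between libraries given Cre mRNA, both were called in the Tut1f/f;Trp53f/f;Cre-labelled library against the Trp53f/f;Cre-labelled library (17.9 and -20.5 points, exact test FDR 1.3e-10 and 7.7e-15). Hmgcs1-202 was also called in Tut1f/f;Cre against the Trp53f/f;Cre-labelled library (-11.4 points, exact test FDR 0.0237).

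The forms of Acly that differ in their first exon took different shares among the libraries. Acly-207 (ENSMUST00000165111), which lacks the noncoding exon 1 of Acly-201 (206 bases, chr11:100527795-100528000), held 14.2%, 22.7%, 44.1% and 15.5% of the gene's reads. Acly-201 (ENSMUST00000007131) held 46.9%, 31.8%, 22.0% and 32.7%, and both have 3273 coding bases. Acly-207 was called in the Trp53f/f;Cre-labelled library against Tut1f/f (29.9 points, exact test FDR 5.6e-06), and in the Tut1f/f;Trp53f/f;Cre-labelled library against it (-28.6 points, exact test FDR 0.00252). Acly-201 was called against Tut1f/f in the Trp53f/f;Cre-labelled library (-24.9 points, exact test FDR 0.00276) and in the Tut1f/f;Trp53f/f;Cre-labelled library (-14.2 points, exact test FDR 0.0137). The shares rest on 99, 15, 26 and 26 reads of Acly-207. A transcript that starts inside a longer form cannot be told apart here from a read of that form that ended early.

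For Mvk, a short form held a larger share than in Tut1f/f. Mvk-201 (ENSMUST00000043760, 1185 coding bases) held 37.0%, 15.7%, 15.8% and 22.2% of reads, and Mvk-206 (ENSMUST00000137167, 678 coding bases) held 22.5%, 51.0%, 40.4% and 46.0%. Mvk-206 has an extra exon of 38 bases (exon 2, chr5:114444652-114444689) and ends before exons 8 to 11 of Mvk-201. It was called in Tut1f/f;Cre (28.5 points, exact test FDR 0.00185) and in the Tut1f/f;Trp53f/f;Cre-labelled library (23.5 points, exact test FDR 0.00972). In level, Mvk-201 had 18.6, 2.64, 2.58 and 4.74 CPM while Mvk-206 had 11.3, 8.58, 6.60 and 9.83 CPM, with log2 ratios to Tut1f/f of -2.82, -2.85 and -1.97 for the full-length form and -0.40, -0.78 and -0.20 for the short form. Mvk-202 (1221 coding bases) held 7 of 200 reads in Tut1f/f and 11.8%, 21.1% and 17.5% in the others, and was called in the Trp53f/f;Cre-labelled library (17.6 points, exact test FDR 0.00120) and the Tut1f/f;Trp53f/f;Cre-labelled library (14.0 points, exact test FDR 0.00846). A variant of Mvk-202 had 27, 0, 4 and 0 reads, and 3 reads in place of the zeros would be shares of 5.88% and 4.76% of the gene's reads.

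Msmo1-203 (ENSMUST00000135943), a transcript with a retained intron and no coding sequence, held 2.87%, 9.44%, 13.0% and 6.17% of Msmo1 reads. It was called in the Trp53f/f;Cre-labelled library (10.1 points, exact test FDR 3.5e-11). In Tut1f/f;Cre the difference was 6.57 points (exact test FDR 0.000249), below the limit of 10 points. Its level was 7.04, 8.91, 18.7 and 13.9 CPM, beside 176, 59.4, 95.3 and 151 CPM for the full-length Msmo1-201.

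Isoforms of Insig1, Srebf2, Nsdhl and some others were called as well. Insig1-201 held 95.9%, 77.8%, 76.0% and 80.0% of Insig1 reads, called in the Trp53f/f;Cre-labelled library from 19 of 25 reads (-19.9 points, exact test FDR 0.0157). Srebf2-201 held 66.8%, 77.2%, 73.7% and 70.5% of Srebf2 reads and was called in Tut1f/f;Cre (10.4 points, exact test FDR 0.0140). Nsdhl-201 held 68.1%, 73.5%, 83.6% and 65.2%, called in the Trp53f/f;Cre-labelled library against Tut1f/f (15.6 points, exact test FDR 0.00773) and in the Tut1f/f;Trp53f/f;Cre-labelled library against it (-18.4 points, exact test FDR 0.0147). Isoforms of Dhcr7, Idi1, Lpin1, Mvd and Stard4 were called in the Trp53f/f;Cre-labelled library as well, with differences from Tut1f/f between -32.5 and 34.0 points. For Lpin1, an isoform named by a read held 1.28%, 28.6%, 35.3% and 20.5% (34.0 points, exact test FDR 3.5e-05) and a variant of Lpin1-201 held 59.0%, 32.1%, 26.5% and 33.3%. Idi1-201 held 75.7%, 81.9%, 86.1% and 81.9%, and Stard4-201 held 76.7%, 85.6%, 90.7% and 80.2%, with a variant of it at 12.0%, 2.22%, 1.87% and 4.72%. The Dhcr7 isoform (70.4%, 70.5%, 55.2% and 73.3%) and the Mvd isoform (32 of 290 reads, then 16.7%, 29.5% and 25.8%) were named by a read, so their exons are not given by the table. The Mvd isoform was called in the Tut1f/f;Trp53f/f;Cre-labelled library too (14.7 points, exact test FDR 0.0447). The most-read isoform of Insig2, Insig2-201, held 73.7% of reads in Tut1f/f, 25 of 41 reads in Tut1f/f;Cre, and 59.4% and 79.5% in the others, and was not called. For Scap and Srebf1 the most-read isoform was named by a read, with 17, 12, 11 and 10 reads for Scap and 13, 1, 0 and 1 for Srebf1.

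In the Tut1f/f;Trp53f/f;Cre-labelled library, 4 of 94 isoforms of the group (4.26%) were called against the Trp53f/f;Cre-labelled library (1.24% of all isoforms), and they belonged to Acly, Hmgcs1 and Nsdhl. Against Tut1f/f;Cre, 0 of 87 were called (0.150% of all isoforms), and the Hmgcs1 isoforms missed the FDR threshold at 0.0632 and 0.0559. Tut1f/f;Cre against the Trp53f/f;Cre-labelled library gave 1 of 86 (1.16%, against 0.222% of all isoforms), the Hmgcs1-202 call above.

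**Figure D5:**
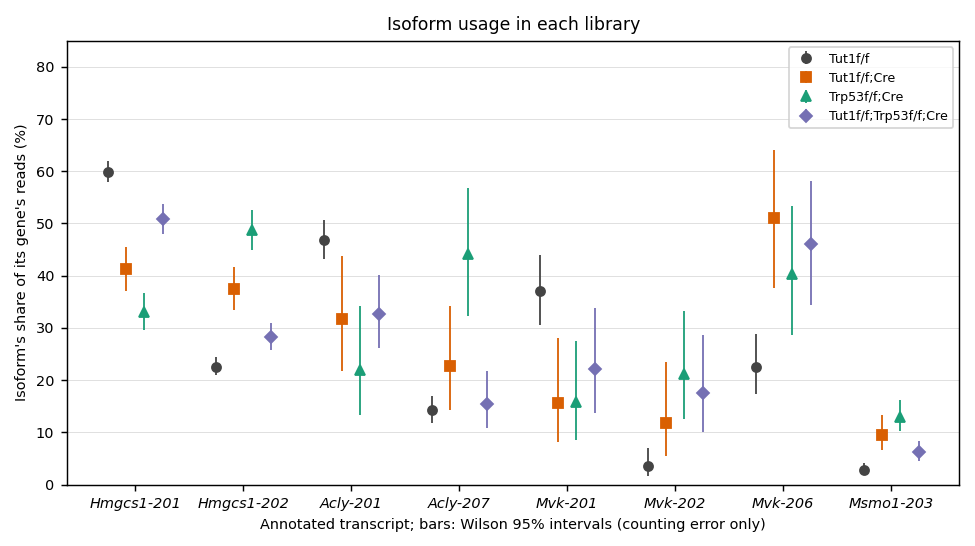
Share of the gene's reads (vertical axis, percent) held by 8 annotated transcripts in each library, with Wilson 95% intervals as bars. Hmgcs1-201 stands at 59.9% in Tut1f/f and at its lowest in the Trp53f/f;Cre-labelled library, where Hmgcs1-202 stands at 48.8% beside 22.6% in Tut1f/f, and Acly-207 stands apart at 44.1% in the Trp53f/f;Cre-labelled library.

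Other genes of the same pathways, listed by function but with earlier results of these data known, were also compared. Of 23 other sterol genes, 16 passed the filter, and 7, 5 and 4 of them were lower and 2, 2 and 1 higher than in Tut1f/f in the libraries given Cre mRNA, in order. Of 24 other fatty acid and glycerolipid genes, 19 passed, with 7, 7 and 5 lower and 1, 1 and 1 higher. Of all genes, 13.3%, 15.3% and 9.76% were lower and 12.7%, 12.5% and 10.3% higher in these comparisons. The medians of the sterol list were -0.66, -0.43 and -0.12, and those of the fatty acid list -0.58, -0.41 and -0.16.

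Some of these genes were past the rule against Tut1f/f in each library given Cre mRNA. On the sterol list they were Lbr, the lamin B receptor with sterol reductase activity (40.5, 8.25, 10.3 and 19.7 CPM), Nr1h2, the sterol receptor LXR beta (8.05, 3.63, 2.30 and 3.39 CPM), and Stard3, a lysosomal sterol carrier (29.9, 6.60, 4.02 and 9.83 CPM). Soat1, which esterifies cholesterol for storage, was the exception and was higher, at 18.6, 55.8, 70.0 and 50.2 CPM with log2 ratios of 1.58, 1.91 and 1.43. On the fatty acid list, Acss2 (acetate to acetyl-CoA), Hacd3 (elongation), Fads2 (desaturation), Acsl3 (activation) and Pcyt2 (phosphatidylethanolamine synthesis) were lower each time. Fads2 had 68.9, 11.9, 8.90 and 19.0 CPM, with log2 ratios of -2.54, -2.95 and -1.86.

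Between libraries given Cre mRNA, the fatty acid elongase Elovl5 was higher in the Tut1f/f;Trp53f/f;Cre-labelled library than in both others, at 136, 37.6, 23.0 and 78.3 CPM over the 4 libraries. Mbtps1, which encodes the protease that first cuts SREBP, had 13.8, 5.94, 4.02 and 8.13 CPM and was higher there than in the Trp53f/f;Cre-labelled library (log2 ratio 1.02), as were Stard3, Hacd3 and Fads2 (1.29, 1.36 and 1.09). Lbr and Tmem97, a sterol-regulated membrane protein, were higher there than in Tut1f/f;Cre (1.25 and 1.39). Tm7sf2, a sterol reductase, was lower in Tut1f/f;Cre than in the Trp53f/f;Cre-labelled library (-1.24).

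Markers of other cells varied with the libraries. Of 5 astrocyte markers, the 4 with an entry had a summed level of 55.3, 16.2, 13.5 and 39.7 CPM, highest in Tut1f/f and the Tut1f/f;Trp53f/f;Cre-labelled library. That order was the order of Aldh1l1, with 187, 16, 11 and 71 reads, and the other markers did not follow it. S100b had 10, 16, 10 and 21 reads, Slc1a2 had 23, 13, 23 and 24, Aqp4 had 0, 4, 3 and 1, and Gfap had no entry. The 7 oligodendrocyte lineage markers summed to 434, 595, 682 and 484 CPM, of which Olig2 gave 251, 459, 560 and 364 CPM. Cnp, a myelin enzyme on that list, ran the other way with 80.2, 10.2, 6.31 and 9.49 CPM and was lower than Tut1f/f in all 3 comparisons (log2 ratios -2.97, -3.67 and -3.08). Olig2 was counted as higher than Tut1f/f in the Trp53f/f;Cre-labelled library (1.16), and Sox10 in Tut1f/f;Cre (1.34, 27 reads against 14). The sum of the neuron markers, of which 3 to 5 of 6 were read, lay between 67.7 and 84.7 CPM. Microglia markers had 0 reads, and vessel and mesenchyme markers had 1 read in all. The part of the stem cell, astrocyte and oligodendrocyte lineage markers in the differences above was not tested. In these bulk libraries, fewer cells of a type and less RNA per cell cannot be told apart.

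Ratios to Tut1f/f also varied with transcript length over all genes. In Tut1f/f;Cre the median log2 ratio was 0.27 for genes with transcripts of up to 1000 bases, -0.32 up to 2000 bases, -0.17 up to 4000 bases and 0.19 beyond. The shortest class held 1 gene of the group and is left out below. In the classes up to 2000, up to 4000 and beyond 4000 bases, the genes of the group had medians of -0.84 (5 genes), -1.35 (10 genes) and -0.68 (10 genes). Each lay below the median of all genes in its class. In the Trp53f/f;Cre-labelled library the group's medians were -0.37, -1.07 and -0.15, beside -0.35, -0.21 and 0.18 for all genes, so that genes of up to 2000 bases were close to the rest. In the Tut1f/f;Trp53f/f;Cre-labelled library they were 0.28, -0.41 and 0.04 beside -0.17, -0.17 and 0.04, so that of these classes only that up to 4000 bases lay below all genes. A length was known for 84.3% of genes tested and for 26 of the 29.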

How the data were processed

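Total RNA of mouse neural stem cells was read as PCR-amplified cDNA on Nanopore flow cells, and 4 libraries were analysed, 1 for each group in the labels. The deposited table gives whole-number read counts per isoform and library, not normalized by the authors. The genome build is mm10 per the submitters' processing notes. The study's methods name minimap2, with an Ensembl reference transcriptome, and FLAIR for long reads of embryonic pallium. Whether these made the present table, and with which strand setting and filters, is not given in the sources used here. Of 255164 entries, 208527 named no gene (17.2% to 30.2% of a library's reads) and stayed out of library sizes and tests. Isoforms were summed per Ensembl gene, and symbols came from GENCODE M21, which matched 14936 of 14949 genes.

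The members and lists were chosen with earlier results of these data known. Named are all members, the isoforms called, and genes of the other lists past the ratio rule in the 3 comparisons with Tut1f/f in 1 direction or between libraries given Cre mRNA. Genes without a role in the rule (Xist, Kdm5d, CT010467.1) describe the libraries, and single marker genes were named after their values were seen. CPM used TMM factors (0.937, 1.02, 1.02 and 1.03) from edgeR 4.0.16 in R 4.3.3. Genes passed edgeR's filterByExpr. Ratio intervals are exact conditional binomial intervals, levels have exact Poisson intervals and shares Wilson intervals, at 95%. Medians used log2 of CPM plus 0.5. A count of 0 was set against 3 reads. The exact test on isoforms needed at least 10 reads of the isoform over both libraries and 20 reads of the gene in each. DESeq2 1.42.0 was the alternative count test. The classes of transcript length were added after the data were seen. The ratio rule, the edgeR fit and Fisher's exact test were tested on simulated counts, and the DESeq2 fit was not. Python 3.11.15 with scipy 1.17.1 and pandas 2.3.3 was used.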

Additional observations from a re-analysis of the deposited data

Results flagged for a closer look

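For 5 genes, the Tut1f/f;Cre-labelled library stood below Tut1f/f while the Tut1f/f;Trp53f/f;Cre-labelled library stood above the Trp53f/f;Cre-labelled library, each past the ratio rule, so that the comparisons for Tut1 ran in opposite directions without and with floxed Trp53. The same pattern was met by 2.51% of all 9882 genes tested and by 17.2% of the 29 genes of the group, and the reverse pattern by 0.405% and by 0 of the 29. The log2 ratios were -1.38 and 1.23 for Acat2, -1.68 and 1.03 for Hmgcs1, -1.60 and 1.20 for Dhcr7, -3.01 and 1.75 for Acly, and -2.80 and 1.61 for Scd2. The difference between the directions was not tested, since each group is 1 library. In both comparisons the higher library was the one with Y-linked reads and without Xist reads, and also the one with more Tut1 reads (37 against 11, and 27 against 14).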

How the results depend on the processing

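With 1 library a group, depth and the lack of replicates limit every ratio. For Scap and Npc1, which have few reads, the intervals against Tut1f/f hold both no change and a 2-fold fall, and intervals cover counting error alone. Without a minimum fold, the counts of genes past the rule were 1 higher and 21 lower in Tut1f/f;Cre against Tut1f/f, 4 higher and 17 lower in the Trp53f/f;Cre-labelled library against Tut1f/f, and 4 higher and 12 lower in the Tut1f/f;Trp53f/f;Cre-labelled library against Tut1f/f. Between libraries given Cre mRNA they were 14 higher and 2 lower against the Trp53f/f;Cre-labelled library and 19 higher against Tut1f/f;Cre, and 12 lower in Tut1f/f;Cre against the Trp53f/f;Cre-labelled library. Of all genes, 24.9% to 30.1% were then lower and 24.1% to 27.4% higher in the comparisons with Tut1f/f, and 8.83% to 13.6% lower and 9.83% to 19.4% higher in the others. Over plain Ensembl transcripts, the median of the Tut1f/f;Trp53f/f;Cre-labelled library against Tut1f/f turned to 0.05 and Lpin1 in the Trp53f/f;Cre-labelled library to 0.12, and of 26 genes 3 were higher against the Trp53f/f;Cre-labelled library (4.31% of all genes) and 1 was lower in Tut1f/f;Cre against it (0.951%). The cause was not tested. With a limit of 20 percentage points, isoform calls against Tut1f/f were 2, 7 and 1 (2.08%, 6.67% and 0.943%, against 4.76%, 5.07% and 3.22% of all isoforms), and between libraries given Cre mRNA 2 and 0 where 4 and 1 had been called (2.13% and 0, against 0.489% and 0.0701%). Scaling by library totals set the median of all genes to 0.11, 0.09 and 0.12 in the comparisons with Tut1f/f. The share of lower among all called genes then went from 51.1% to 42.0%, from 55.1% to 46.7% and from 48.5% to 36.9%, and the group's lower counts were 14, 11 and 6 of 29, where 11.1%, 13.0% and 7.62% of all genes were lower. Under DESeq2 size factors the higher counts between libraries given Cre mRNA were 4 and 10 of 29, where 4.30% and 2.15% of all genes were higher. Of the checks of a main result, 112 stayed within the limits set for it, 15 moved and 1 reversed. The 112 include counts of 0 that stayed 0, and direction was checked for the medians alone. The limits were wide for the medians: that of the Trp53f/f;Cre-labelled library against Tut1f/f went from -0.89 to -0.48 over plain Ensembl transcripts. No paired analysis was possible because each group is 1 library without a replicate number.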
